A study of Drosophila melanogaster with 31 samples.

Results

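Cells that express GFP under *atonal* (*ato*) control were compared with GFP- cells at t2, 6.75 to 7.75 h after egg laying. The comparison takes in 8 of the 31 arrays of the series, 4 of *ato*GFP+ cells and 4 of *ato*GFP- cells, chosen by the age, genotype and GFP class in the sample titles. Both classes came from wild-type *Drosophila* embryos of a single transgenic line, atoGFP.7;w118, so every control cell carries the reporter too. Embryos were laid over 1 h at 25 °C, matured at 18 °C, pooled, dissociated and sorted by flow cytometry, with typically 300000 GFP+ and 1000000 GFP- cells collected. The paper states t1 as equivalent to 5.75 to 6.75 h of development at 25 °C, with t2 and t3 following in steps of 1 h. The hours are thus not time spent at 18 °C. The sorted classes at t1 (5.75 to 6.75 h) and t3 (7.75 to 8.75 h) share that genotype, with 4 arrays per class except 3 for GFP- cells at t3. They are used here for comparison with t2 and for the change of enrichment. The other arrays, 4 of GFP+ and 4 of GFP- cells from *ato* mutant embryos at t1, are not compared here. All 31 arrays enter the estimate of spread behind the standard errors and p-values, and the choice of each gene's brightest probe set. The reporter is driven by upstream *ato* sequence and is also active in the developing larval eye, so GFP+ cells are not a single cell type, and the GFP- class is all the rest of the embryo. The title of GFP- replicate 4 and its source name give different GFP classes, and the title was followed.

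*ato* encodes a bHLH transcription factor of the proneural kind, which makes ectodermal cells into sensory organ precursors. In the fly embryo its precursors give the chordotonal organs, internal stretch receptors whose neurons carry a mechanosensory cilium and are wrapped by scolopale, cap and attachment cells born from the same precursor. These neurons are among the few fly cells that build a cilium, a process that uses intraflagellar transport (IFT) and, for the motile kind of axoneme, dynein arms.

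One sequence is shown because *Rfx*, the RFX-type activator of ciliary genes, is among the most enriched genes below and was the subject of the study's binding assay. It is the *Rfx* gel retardation probe, from chromosome arm 3R, in which capitals mark the only E box (CANNTG, the letters that bHLH dimers such as Ato with its partner bind):
Rfx-EATO1: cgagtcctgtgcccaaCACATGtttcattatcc
It is a designed double-stranded oligonucleotide of 33 bases, and nothing in the arrays measures binding to it.

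The markers followed the sort. *ato* had log2 expression of 12.33, 12.43, 12.65 and 12.56 in the 4 GFP+ arrays, against 8.55, 8.58, 8.92 and 8.70 in the 4 GFP- arrays. The difference was 3.80 on the log2 scale (SE 0.16), which is 14-fold (limma adjusted p = 1.9e-17). *dila*, a centrosomal protein needed at the base of the cilium, had 7.81, 8.24, 8.59 and 8.61 in GFP+ arrays and 4.01, 4.02, 4.40 and 3.99 in GFP- arrays, a difference of 18.5-fold (limma adjusted p = 1e-13). *cato*, the bHLH gene that follows *ato* in sense organ lineages, had 10.55, 10.70, 10.92 and 10.94 in GFP+ arrays and 6.66, 6.72, 6.95 and 6.88 in GFP- arrays, 15.7-fold (limma adjusted p = 6.1e-18). For all 3 markers every GFP+ array lay above every GFP- array, and GFP- replicate 4, the array with conflicting labels, lay within or next to the other GFP- values. Values are the authors' quantile-normalised log2 intensities, SE comes from a limma model of 8 group means over all 31 arrays, and p-values are Benjamini-Hochberg adjusted over 18769 probe sets. The 8 arrays had medians of 4.79 to 4.84, and correlated at 0.997 to 0.998 within a class. The labels call the arrays independent samples without saying what was separate, so p-values measure the spread between these samples. With 4 arrays a class, their number limits the precision. In sorted bulk samples, fewer cells of a type and less RNA per cell cannot be told apart.

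At t2, 402 of 11982 genes (3.36%) were higher in GFP+ cells and 689 (5.75%) were lower, at a change of at least 1.5-fold and an adjusted p of at most 0.01. A gene counts when a probe set that names it alone passes, and is given the value of its brightest probe set. *lola*, which has 15 probe sets, was called in both directions, 2 of them higher and 1 lower. All 4 GFP+ arrays lay above all 4 GFP- arrays for 1522 genes (12.7%) and below them for 1896 (15.8%), and the median difference over all genes was 0.01. With each array centred on its cytoplasmic ribosomal protein genes, which put the median over all probe sets at 0.160 in place of 0.0156, the split became 639 genes higher and 479 lower, so the balance between directions rests on the centring. Called higher were then 57.2% of the calls, against 36.8% with the deposited scale.

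**Figure D1:**
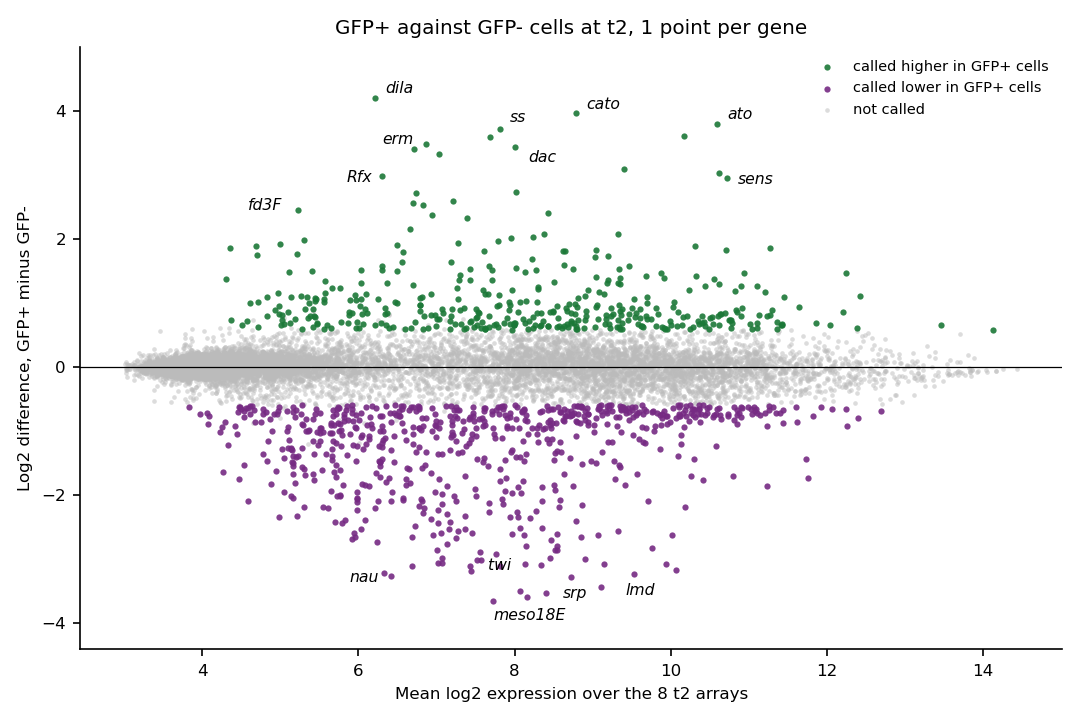
Difference between GFP+ and GFP- cells at t2 (log2, GFP+ minus GFP-) against the mean log2 expression over the 8 arrays, 1 point per gene (green: called higher in GFP+ cells, purple: called lower, grey: not called). Place and colour follow each gene's brightest probe set, so 18 genes called only on another probe set are not coloured as called. Genes coloured as higher reach 4.21 (*dila*) and those coloured as lower reach -3.65 (*CG7763*), and called genes span dim and bright levels.

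The 15 genes with the largest enrichment were taken from called genes whose GFP+ arrays all lay above their GFP- arrays. They were led by sensory precursor and head patterning regulators. After *dila*, *cato* and *ato* came *ss*, a bHLH-PAS factor that gives antennal identity, with 9.53, 9.70, 9.79 and 9.68 in GFP+ arrays against 5.92, 6.20, 5.87 and 5.81 in GFP- arrays. The GFP+ and GFP- arrays of *ss* were more than 3 log2 units apart, 13.2-fold. *meru* (CG32150), a RASSF family protein of sense organ precursors, and *CG5597* were 12.2-fold and 12-fold higher. *erm*, a zinc finger factor of neural progenitors, had 8.39, 8.45, 8.86 and 8.73 in GFP+ arrays and 5.01, 5.40, 4.96 and 5.11 in GFP- arrays, 11.2-fold. *dac*, a nuclear factor of eye, leg and antenna, had 9.60, 9.71, 9.87 and 9.74 in GFP+ arrays and 6.41, 6.63, 5.93 and 6.19 in GFP- arrays, 10.8-fold. Their classes were apart, as the choice of these genes required.

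Next was *Pex7* (CG6486), the receptor that brings one class of enzymes into peroxisomes, which had 8.10, 8.40, 8.58 and 8.60 in GFP+ arrays and 4.87, 5.06, 5.09 and 5.04 in GFP- arrays. It was 10.6-fold higher. *Rfx* had 7.44, 7.44, 8.28 and 7.99 in GFP+ arrays and 5.05, 4.80, 4.85 and 4.53 in GFP- arrays, a difference of 2.98 (SE 0.21, limma adjusted p = 2.6e-12) or 7.90-fold. GFP+ replicates 3 and 4 were its highest arrays. *cpo*, an RNA-binding protein of the peripheral nervous system, was 8.20-fold higher, and *sens*, a zinc finger factor that maintains proneural gene expression, 7.77-fold higher. *cpo* has 3 probe sets, of which 2 were called and the other differed by -0.14. *CG9095*, *CG17549* and *prim* (CG15704) completed the 15, the last at 6.68-fold.

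**Figure D2:**
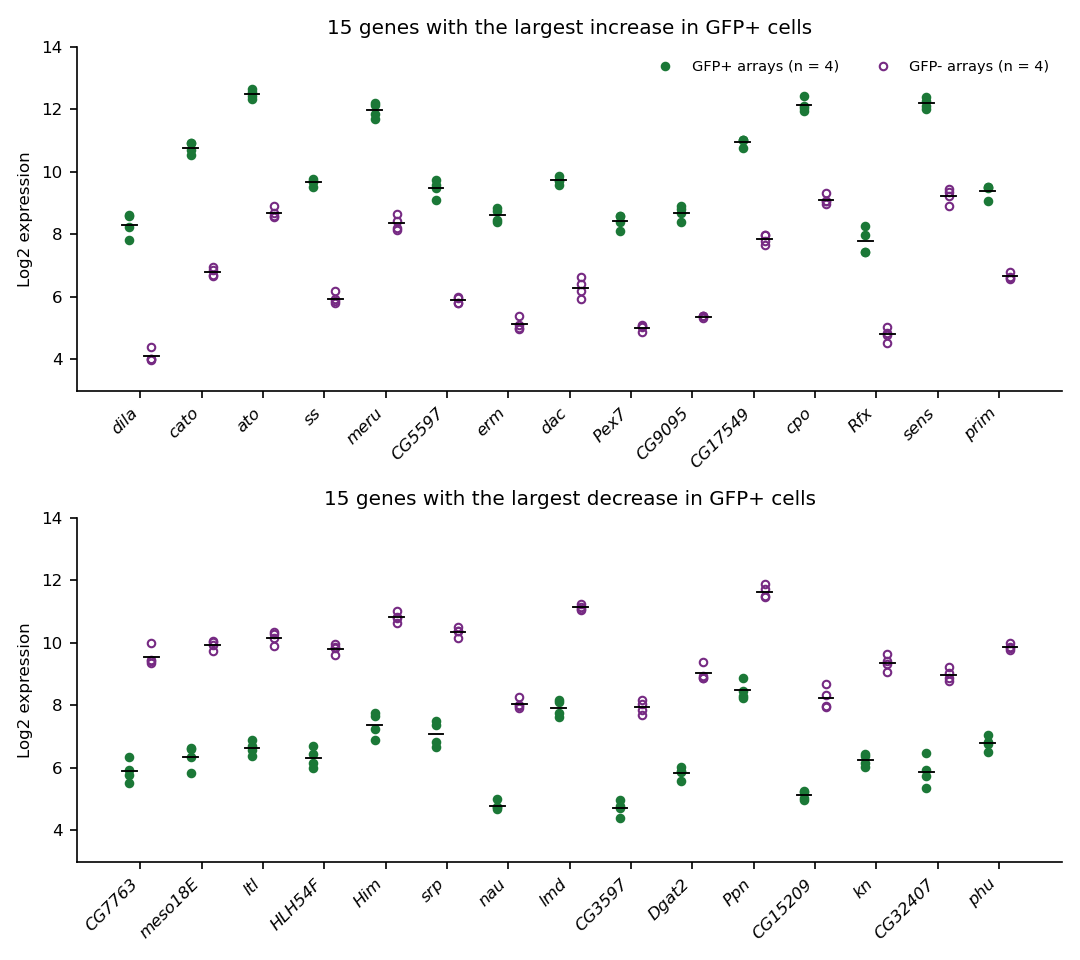
Log2 expression of the 15 genes most enriched and the 15 most depleted in GFP+ cells at t2, 1 dot per array (4 GFP+ and 4 GFP- arrays per gene), with a bar at each class mean. Only genes whose GFP+ and GFP- arrays did not overlap were eligible. *CG7763*, at the depleted end, had 5.53 to 6.35 in GFP+ arrays and 9.35 to 9.99 in GFP- arrays.

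Counts of list members called at t2, here and below, stand against 3.36% of all genes higher and 5.75% lower. Proneural genes differed by family. Of the 3 *ato*-family genes, *ato* and *cato* were higher and *amos*, which makes olfactory and multidendritic precursors, was lower. *amos* had 6.28, 6.11, 6.01 and 5.74 in GFP+ arrays and 7.14, 6.88, 7.38 and 7.30 in GFP- arrays, 2.21-fold lower (limma adjusted p = 6e-07). None of its GFP+ arrays reached the lowest GFP- array. Of the 4 achaete-scute complex genes, which make external sense organs and neuroblasts, none was higher and *ac* was lower at -0.61 (SE 0.15, adjusted p = 0.0038), a call lost with ribosomal protein centring and on leaving out replicate 3 or replicate 4 of either class. *sc* differed by -0.32 (adjusted p = 0.15) and *l(1)sc* by -0.42 (adjusted p = 0.015), short of the limits, and *ase* by 0.44 (adjusted p = 0.016).

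All 6 measured sensory precursor regulators were higher, with a median difference of 1.80 against 0.01 over all genes. Besides *sens* and *cpo* these were *nvy*, a corepressor of the ETO family, *sv*, the Pax2 homologue of shaft and sheath cells, *phyl*, an adaptor for degradation of Tramtrack, and *neur*, the ubiquitin ligase that activates Delta. *nvy* had 11.41, 11.55, 11.77 and 11.74 in GFP+ arrays and 9.77, 9.97, 9.60 and 9.81 in GFP- arrays, 3.56-fold. *sv* had 5.62, 6.02, 6.56 and 6.22 in GFP+ arrays and 4.29, 4.41, 4.41 and 4.21 in GFP- arrays, 3.42-fold. *neur*, the least different of the 6, was 1.59-fold higher, its GFP+ arrays all above its GFP- arrays.

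Asymmetric division is the step by which the precursor's daughters take different fates. Of its 10 measured genes, 2 were higher, the Notch regulators *spdo* and *numb*, and none was lower (median 0.30). *spdo*, a transmembrane protein required for Notch signalling in the daughters, had 10.96, 11.14, 11.62 and 11.28 in GFP+ arrays and 9.44, 9.35, 9.20 and 9.43 in GFP- arrays, 3.72-fold. *numb*, which blocks *spdo* in one daughter, was 1.62-fold higher. *insc* (-0.11), *pins* (0.03), *mira* (0.20) and *pros* (0.21) were not called, and their classes overlapped.

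Both ciliogenic transcription factors, *Rfx* and *fd3F*, were higher. *fd3F*, a forkhead factor that specialises chordotonal cilia for movement, had 6.13, 6.25, 6.82 and 6.62 in GFP+ arrays and 3.83, 3.95, 4.27 and 3.93 in GFP- arrays, 5.50-fold (limma adjusted p = 7.3e-08). A dim second probe set of *fd3F* was not called. The structural genes of the cilium were split at t2. At its base, 4 of 7 measured genes were higher and the rest not called (median 1.01), with *dila* followed by *Root*, the rootlet protein, at 5.89-fold. *Root* had 7.66 to 8.13 in GFP+ arrays and 5.23 to 5.62 in GFP- arrays. The basal body protein *Cby* was 2.48-fold higher and *Cep290*, of the transition zone, 2.02-fold higher.

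For intraflagellar transport, 3 of 5 IFT-A genes were higher, with a median of 1.04, and 2 of 9 IFT-B genes, with a median of 0.37. IFT-A serves return transport from the ciliary tip and IFT-B outward transport. The IFT-A gene *Oseg4* had 8.86, 8.86, 9.13 and 9.27 in GFP+ arrays and 7.49, 7.51, 7.53 and 7.52 in GFP- arrays, 2.86-fold. *Oseg6* and *Oseg1*, of the same complex, were 2.32-fold and 2.05-fold higher. The IFT-B gene *IFT46* had 5.76, 5.83, 6.81 and 6.58 in GFP+ arrays and 5.13, 4.81, 4.63 and 5.03 in GFP- arrays, 2.54-fold. *Ttc26*, also of IFT-B, was 2.23-fold higher, a call lost when GFP+ replicate 3 was left out.

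Among the 13 axonemal dynein and dynein assembly genes 3 were higher and none was lower (median 0.40). *Ccdc114*, whose human counterpart docks dynein arms, had 4.66, 4.98, 5.82 and 5.70 in GFP+ arrays and 3.35, 3.26, 3.83 and 3.27 in GFP- arrays, 3.63-fold. *TbCMF46* was 2.83-fold and *Zmynd10*, a dynein assembly factor, 2.24-fold higher. In all 3, GFP+ replicates 3 and 4 lay above replicates 1 and 2. Of 3 ciliary transport motor genes *Klp68D* was higher at 1.59-fold, and of 6 BBSome genes *BBS5* was, also at 1.59-fold. The *Klp68D* call was lost without GFP- replicate 3 and the *BBS5* call without GFP+ replicate 3 or 4 or any single GFP- array. Tested against a change of 1.5-fold, no dynein, IFT-B, motor or BBSome gene was called, and 1 IFT-A gene was. With dim probe sets (mean below 6) left out, no dynein, IFT-B or BBSome gene was called, and 1 of the 2 ciliogenic transcription factors was. At a 2-fold limit the dynein, IFT-B and IFT-A lists kept 3, 2 and 3 calls.

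Genes of the differentiated organ were read from lists of channels, neurons and support cells, set against 3.36% of all genes higher and 5.75% lower. None of 7 sensory channel genes was called in either direction (median 0.10), and all 7 lay below a log2 value of 5 in every t2 array, close to the array medians. The TRPV channel gene *nan* had 4.71, 4.67, 4.75 and 4.72 in GFP+ arrays and 4.65, 4.75, 4.66 and 4.72 in GFP- arrays. Of 11 neuron differentiation genes 1 was higher, the adhesion molecule *Nrg*, and 1 lower, *CadN* (N-cadherin). The *Nrg* call came from a probe set other than its brightest, which differed by 0.58. *CadN* had 5.63, 5.62, 5.88 and 5.60 in GFP+ arrays and 7.77, 7.58, 7.28 and 7.48 in GFP- arrays, 3.59-fold lower (limma adjusted p = 2.2e-15). *elav*, the pan-neuronal RNA-binding protein, had 11.05, 11.09, 11.07 and 11.22 in GFP+ arrays and 11.23, 11.34, 10.85 and 11.00 in GFP- arrays, so its classes overlapped. Of 7 genes of cap, scolopale and attachment cells, *sv* was higher and *betaTub60D*, a tubulin of attachment cells and muscle, was 7.07-fold lower. The remaining 5 were not called.

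**Figure D3:**
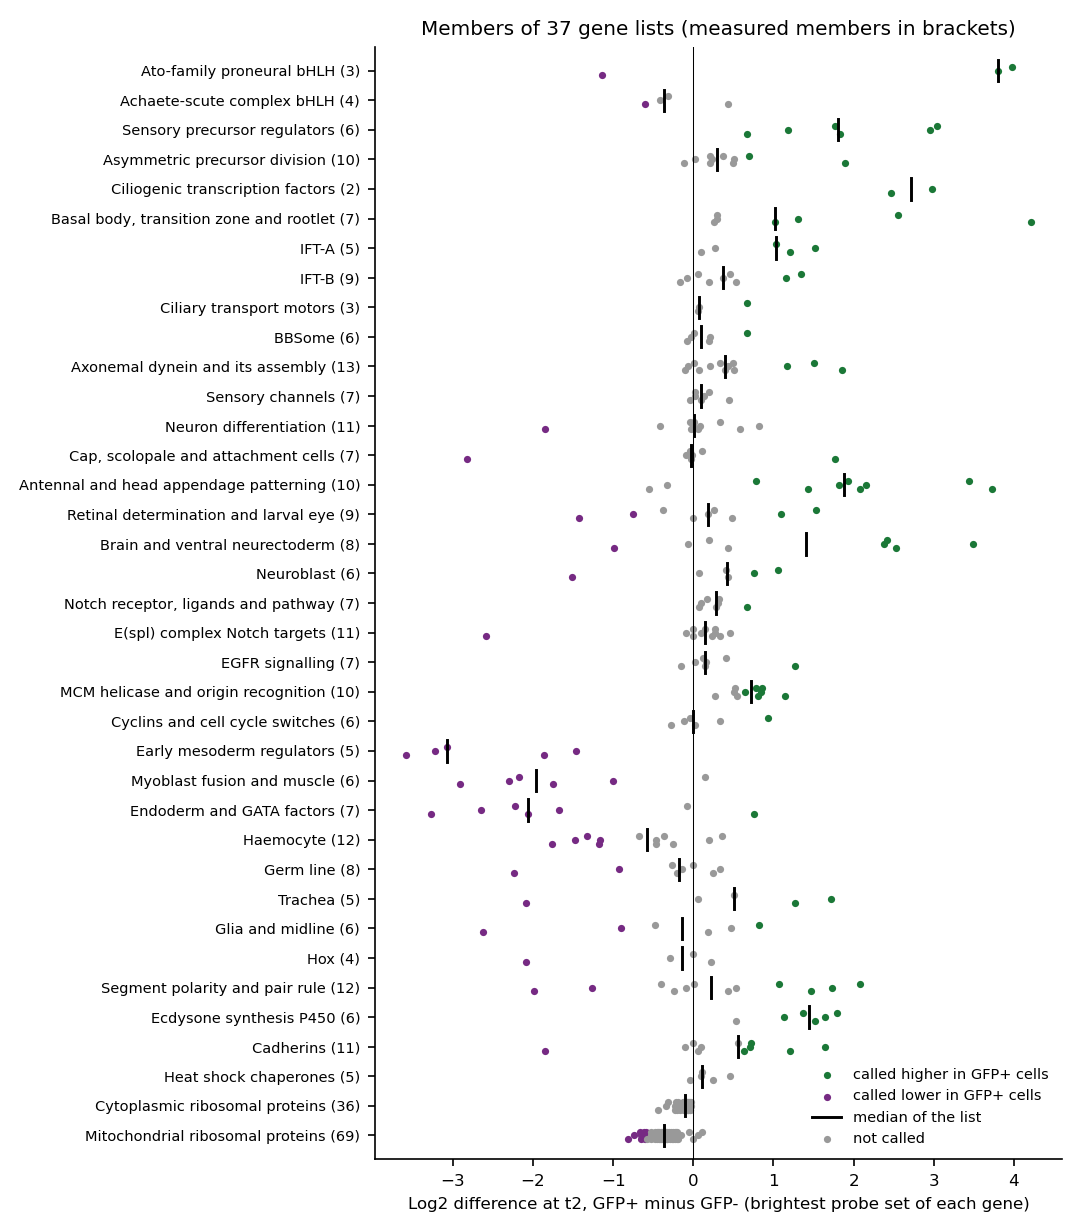
Difference between GFP+ and GFP- cells at t2 (log2, GFP+ minus GFP-) for the measured members of 37 gene lists, 1 point per gene, with a bar at each list's median. Sensory precursor regulators (median 1.80) and antennal and head genes (1.88) lie to the right, early mesoderm (-3.07), endoderm (-2.06) and muscle genes (-1.96) to the left, and sensory channels (0.10) and cytoplasmic ribosomal proteins (-0.10) near 0.

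The lists of head and brain patterning genes also held many enriched members. Of 10 antennal and head appendage genes 8 were higher, none was lower, and the median was 1.88. Besides *ss* and *dac* they included *B-H1*, *Dll*, *al* and *Lim1*, homeodomain factors of the antenna and leg. These genes are not confined to the head. By in situ hybridisation the paper found *al* in some early chordotonal precursors. It found *Lim1* in an *ato*-like pattern, and later widely in the peripheral nervous system. *Dll* had 9.44, 9.31, 9.38 and 9.52 in GFP+ arrays and 7.37, 7.43, 7.29 and 7.25 in GFP- arrays, 4.22-fold. *B-H1* had 7.52, 7.56, 8.02 and 7.85 in GFP+ arrays and 5.62, 5.78, 5.56 and 5.37 in GFP- arrays, 4.45-fold. Of 8 brain and ventral neurectoderm genes, *erm*, *scro*, *bi* and *tll* were higher and *ems* lower. *tll*, the nuclear receptor of the embryonic brain and head, had 7.98 to 8.48 in GFP+ arrays and 5.55 to 5.96 in GFP- arrays, 5.19-fold. *scro* was 5.79-fold and *bi*, a T-box factor, 5.33-fold higher, while *ems*, a head gap gene, was 1.99-fold lower with classes apart.

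The 9 retinal determination genes went both ways, with 3 called higher, 2 lower and a median of 0.19. *Optix*, a homeodomain factor of the sine oculis family, had 7.98, 8.07, 8.43 and 8.30 in GFP+ arrays and 6.77, 6.68, 6.49 and 6.73 in GFP- arrays, 2.88-fold. *svp*, a nuclear receptor of photoreceptor fates, was 2.14-fold higher. *oc*, a head homeodomain factor, was 2.69-fold lower and *ey*, one Pax6 gene, 1.69-fold lower. The other Pax6 gene, *toy*, had probe sets that disagreed. One averaged 9.34 ± 0.24 in GFP+ and 5.09 ± 0.14 in GFP- arrays (SD, n = 4 each), 19.0-fold higher and the largest difference of any probe set named here, and a second was 11.2-fold higher. The brightest averaged 8.99 ± 0.05 in GFP+ and 9.37 ± 0.09 in GFP- arrays and was not called. Which transcripts of *toy* each probe set reads was not analysed here.

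Neural stem cell and signalling genes followed. Of 6 neuroblast genes *dpn* (2.09-fold) and *esg* (1.69-fold) were higher and *nerfin-1*, a marker of newborn neurons, was 2.84-fold lower. *wor* overlapped between the classes, at 9.86 to 10.13 in GFP+ arrays and 9.50 to 10.22 in GFP- arrays. The summed intensity of these 6, on a linear scale, was 5647 to 7103 in GFP+ arrays and 4079 to 5996 in GFP- arrays. Its part in the results for progenitor genes such as *erm* was not tested. The paper's in situ hybridisation found *esg* throughout the peripheral nervous system and *erm* in the larval eye. Among 7 Notch receptor, ligand and pathway genes only *neur* passed. *Dl*, the ligand Delta, was 0.32 higher on the log2 scale (adjusted p = 8.1e-06), below the fold limit, with its classes apart. None of 11 *E(spl)* complex genes, the targets of Notch, was higher, and *E(spl)m1*, which encodes a protease inhibitor rather than a bHLH repressor, was 6.01-fold lower. Of 7 EGFR pathway genes *aos*, the secreted inhibitor of the receptor, was higher, with 11.40, 11.56, 11.64 and 11.55 in GFP+ arrays and 10.32, 10.37, 10.18 and 10.20 in GFP- arrays, 2.41-fold.

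Of the 10 MCM helicase, origin recognition and loading genes, which license DNA for replication, 6 were called higher and none lower (median 0.71). With ribosomal protein centring 9 were called higher, and at a 2-fold limit 1 was. All 10 had their 4 GFP+ arrays above their 4 GFP- arrays, where 12.7% of all genes did. *Orc1*, a subunit of the origin recognition complex, had 9.53, 9.58, 10.04 and 9.73 in GFP+ arrays and 8.52, 8.65, 8.58 and 8.54 in GFP- arrays, 2.21-fold. *Cdc6*, which loads the helicase, had 9.83, 9.84, 10.12 and 10.12 in GFP+ arrays and 9.13, 9.06, 9.11 and 9.23 in GFP- arrays, 1.79-fold. *Mcm2*, a helicase subunit, was 1.74-fold higher. In all 10 genes GFP+ replicates 3 and 4 were above replicates 1 and 2. Among 6 cyclin and cell cycle switch genes *CycE*, the cyclin of S phase entry, was 1.90-fold higher, with GFP+ arrays at 11.28 to 11.46 and GFP- arrays at 10.31 to 10.52.

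Of 6 enzymes of ecdysone metabolism 5 were higher. The steroid is made in steps by cytochrome P450 enzymes of the Halloween group, of which *phm* was 3.47-fold higher, *shd* 3.13-fold, *sad* 2.87-fold and *dib* 2.58-fold. *Cyp18a1*, which inactivates the hormone, was 2.19-fold higher. *phm* had 7.29, 7.36, 7.63 and 7.61 in GFP+ arrays and 5.68, 5.75, 5.36 and 5.91 in GFP- arrays. *sad* had 8.37, 8.27, 8.66 and 8.60 in GFP+ arrays and 6.92, 6.85, 6.92 and 7.11 in GFP- arrays. Neither gene's classes overlapped, and the last of the 6 measured, *spo*, differed by 0.53 with its classes apart and missed the fold limit (median of the 6, 1.45). Of 11 cadherins 5 were higher, among them *Cad86C* (3.14-fold), the planar polarity cadherin *stan* (2.31-fold) and the epithelial cadherin *shg* (1.63-fold), and *CadN* was lower.

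Of the 12 segment polarity and pair rule genes 4 were higher and 2 lower (median 0.22), where 3.36% and 5.75% of all genes were. *en*, the selector of the posterior compartment, had 12.90 to 13.04 in GFP+ arrays and 11.25 to 11.75 in GFP- arrays, 2.78-fold. Its sister gene *inv* was 4.24-fold and its target *hh*, a secreted signal, 3.32-fold higher. *prd* was the other gene called higher, and *ftz* was 3.98-fold and *odd* 2.41-fold lower. Of 4 Hox genes *Scr* was 4.23-fold lower and the other 3 were not called.

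Genes of mesoderm led the depleted side. All 5 early mesoderm regulators were lower in GFP+ cells, with a median of -3.07. *twi*, the bHLH factor that specifies mesoderm, had 6.73, 6.69, 6.64 and 6.35 in GFP+ arrays and 9.53, 9.67, 9.61 and 9.89 in GFP- arrays, 8.42-fold lower (limma adjusted p = 1.8e-14). *lmd*, the zinc finger factor of fusion-competent myoblasts, had 8.10, 8.17, 7.62 and 7.76 in GFP+ arrays and 11.16, 11.25, 11.05 and 11.09 in GFP- arrays, 9.35-fold lower. The classes of both were more than 2 log2 units apart. *nau*, the fly MyoD, had 5.00, 4.76, 4.69 and 4.74 in GFP+ arrays and 7.91, 7.99, 8.03 and 8.28 in GFP- arrays, 9.56-fold lower. *HLH54F*, a bHLH factor of visceral mesoderm, was 11.2-fold lower and *meso18E* 12-fold lower. Of 6 muscle genes 5 were lower (median -1.96), among them the fusion genes *sing* (7.53-fold) and *kirre* (4.91-fold). The most depleted gene was *CG7763*, with 5.93, 6.35, 5.53 and 5.77 in GFP+ arrays and 9.35, 9.99, 9.41 and 9.45 in GFP- arrays, 12.6-fold lower. *ltl*, *Him*, an inhibitor of muscle differentiation, *srp*, *Dgat2*, *Ppn*, a matrix protein, *kn*, *CG3597*, *CG15209*, *CG32407* and *phu* filled the other places, with differences of -3.53 to -3.08.

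Other lineages were depleted gene by gene. Of 7 endoderm and GATA factor genes 5 were lower, including *srp*, the GATA factor of blood and fat body, with 7.49, 7.36, 6.68 and 6.82 in GFP+ arrays and 10.40, 10.52, 10.17 and 10.37 in GFP- arrays, 9.68-fold. *hkb*, *fkh* and *GATAe*, factors of gut, were 6.26-fold, 4.68-fold and 4.17-fold lower. *grn*, another GATA factor, was 1.69-fold higher. Of 12 haemocyte genes 5 were lower and none higher (median -0.57), among them *gcm* (3.39-fold) and *Pxn* (2.78-fold), a matrix peroxidase of blood cells. *Hml*, a later haemocyte marker, differed by -0.25 and was not called. In the germ line list *nos* was 4.71-fold and the gap junction gene *zpg* 1.91-fold lower, and the remaining 6 of 8 were not called. *vas*, a helicase of germ cells, was level at 4.36 to 4.57 in GFP+ arrays and 4.36 to 4.60 in GFP- arrays.

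Tracheal and glial genes did not move one way. *btl*, the FGF receptor of trachea, was 4.24-fold lower, whereas the nuclear receptors *kni* and *knrl*, which act in tracheal branching and head segmentation, were 2.40-fold and 3.28-fold higher. *moody*, a receptor of the blood-brain barrier glia, was 6.17-fold lower, *repo*, the defining factor of lateral glia, 1.87-fold lower, and *loco*, a G protein regulator, 1.77-fold higher. *repo* spread widely in GFP+ cells, with 6.26, 7.21, 7.64 and 7.57 against 8.05, 8.20, 7.92 and 8.14 in GFP- arrays, and its call was lost with ribosomal protein centring and on leaving out GFP+ replicate 1, GFP- replicate 2 or GFP- replicate 4.

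Marker lists of other cell types were also summed on the linear scale. Summed intensities of the 5 mesoderm regulators were 857 to 947 in GFP+ arrays and 5301 to 5849 in GFP- arrays, and those of the 6 muscle genes 255 to 318 and 1322 to 1471 in the same order. The 12 haemocyte genes summed to 1779 to 1974 in GFP+ arrays and 4417 to 5251 in GFP- arrays. The germ line list, with *vas* and 2 other members below a log2 value of 5 in all 8 arrays, summed to 2757 to 3035 in GFP+ arrays and 2584 to 2730 in GFP- arrays. The part of these cells in the depleted genes was not tested. In housekeeping lists none of 36 cytoplasmic ribosomal protein genes and none of 5 heat shock genes was called. The ribosomal protein median was -0.10, and 19 of the 36 had all GFP+ arrays below all GFP- arrays, where 15.8% of all genes did. Of 69 mitochondrial ribosomal protein genes 9 were lower, where 5.75% of all genes were, or 2 with ribosomal protein centring and 5 without GFP+ replicate 3, and none was higher under any of these. Their median was -0.37, and 58 of the 69 had all GFP+ arrays below all GFP- arrays.

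Calls at t2 were set beside those at t1 and t3, which use different arrays. At t1 300 genes (2.50%) were higher and 586 (4.89%) lower, and at t3 371 (3.10%) and 533 (4.45%). Of the genes higher at t2, 226 were also higher at t1, which is 56.2% of the t2 list and 75.3% of the t1 list. Also higher at t3 were 162, or 40.3% of the t2 list and 43.7% of the t3 list, and 112 were higher at all 3 ages. For lower genes the t1 overlap was 466 (67.6% of t2, 79.5% of t1), the t3 overlap 226 (32.8% of t2, 42.4% of t3), and 169 were lower throughout. A call at one age and not at another does not show a difference between them. Of the 176 genes higher at t2 and not at t1, 6 gained enrichment when the difference between the ages was itself tested.

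That direct test found 24 genes (0.200%) that gained and 36 (0.300%) that lost enrichment at t2 relative to t1. A gain can be a larger enrichment or a smaller depletion. *Pex7* was the clearest case of the first. Its level in GFP+ cells was 6.28 ± 0.32 at t1, 8.42 at t2 and 8.37 ± 0.45 at t3, while in GFP- cells it was 4.85 ± 0.23, 5.01 and 7.72 ± 0.26 at the same ages (SD, n = 4 except n = 3 for GFP- at t3). Its enrichment at t2 exceeded that at t1 by 1.97 (SE 0.31, limma adjusted p = 0.00038).

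The largest gain, *org-1* (2.09), was of the other kind. This T-box gene of muscle founders had 5.09 in GFP+ and 7.66 in GFP- cells at t1, then 4.25 in GFP+ and 4.73 in GFP- cells at t2. *Six4* (1.30) behaved likewise, with 6.40 in GFP+ and 9.27 in GFP- cells at t1 and 5.85 and 7.44 in the same order at t2. *Sodh2*, *Poxm*, a paired-box gene of muscle, *CG30268*, *bbg*, *VepD*, *CG7120* and *out* also gained, by 0.92 to 1.33. Of these, *Sodh2* and *out* were called higher in GFP+ cells at t2. A gain could also come with a fall in both classes. *out* had 10.73 in GFP+ and 10.45 in GFP- cells at t1, and 9.54 and 8.34 at t2. *Cdc6* was among the 24, with a gain of 0.61, and its level also fell in both classes. It had 10.39 in GFP+ and 10.15 in GFP- cells at t1, and 9.98 and 9.13 at t2.

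Among losses at t2 relative to t1, *toy* changed by -2.03 on its brightest probe set, but its 2 enriched probe sets differed by 0.04 and 0.05 between the ages. *GstE6*, a glutathione transferase, changed by -1.85, *CG5973* by -1.77, *CG6959* by -1.74 and *tey*, a regulator of muscle targeting, by -1.64. *sls*, the fly titin, changed by -1.59, its classes standing further apart at t2. It had 4.36 in GFP+ and 5.62 in GFP- cells at t1, and at t2 5.73, 5.69, 5.26 and 5.62 in GFP+ arrays against 8.40, 8.32, 8.51 and 8.50 in GFP- arrays. *svp*, still enriched at t2, changed by -1.40 on its brightest probe set. That probe set had 9.89 in GFP+ and 7.40 in GFP- cells at t1, and 10.24 and 9.15 at t2. The dimmer probe sets of *svp* changed by 0.42 and -0.65, and neither was called. *erm* changed by -0.95 (limma adjusted p = 0.005), while *CG9380* (-1.40), *CG15209* (-1.32) and *Arpc3B* (-1.31) completed the list. Without t2 GFP+ replicate 3 the counts were 16 gains and 23 losses, and 24 losses remained without t2 GFP- replicate 2 or without t1 GFP+ replicate 4. The calls of *Arpc3B*, *CG15209*, *CG5973*, *CG6959*, *CG7120*, *GstE6* and *VepD* were lost when single arrays were left out.

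**Figure D4:**
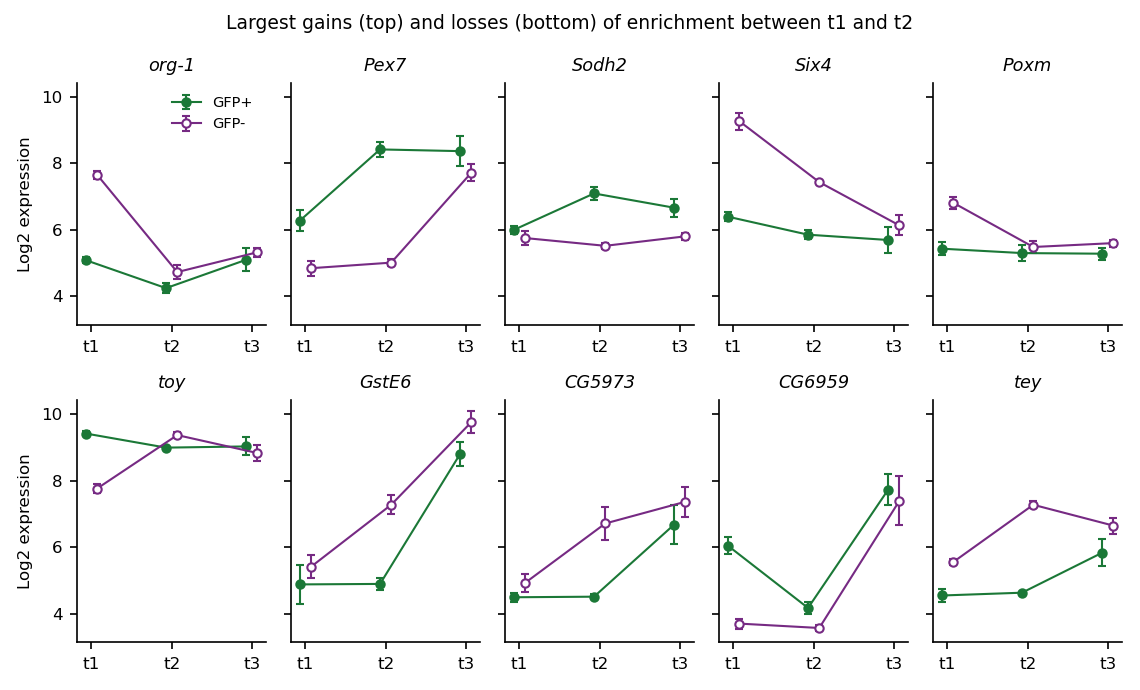
Mean log2 expression (± SD, n = 4, or 3 for GFP- cells at t3) by age in GFP+ and GFP- cells for the 5 genes with the largest gain and the 5 with the largest loss of enrichment at t2 relative to t1. *Pex7* is higher in GFP+ cells at t2 (8.42) than at t1 (6.28), whereas *org-1* is lower in GFP- cells at t2 (4.73) than at t1 (7.66).

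Far more genes differed between t2 and t3, with 387 gaining (3.23%) and 289 losing (2.41%) enrichment at t3 relative to t2. Both direct tests use the t2 arrays, so their values are given side by side and not combined. The enrichment of *erm* changed by -3.03, that of *Pex7* and *cato* by -2.76 each, *dac* by -2.24, *CG9095* by -2.17, *ato* by -2.12 (limma adjusted p = 1.7e-07) and *ss* by -2.08. Changes from t1 to t2 in the same genes were -0.95 for *erm* and 1.97 for *Pex7*, and neither *ato* nor *cato* passed the limits at that step. *ato* itself had 12.31 ± 0.10 in GFP+ and 8.68 ± 0.11 in GFP- cells at t1 and 8.10 ± 0.35 and 6.41 ± 0.49 in the same order at t3. Not every loss was a fall in GFP+ cells. *CG9095* had 8.69 in GFP+ and 5.37 in GFP- cells at t2, and 9.33 and 8.16 in the same order at t3. *dila*, the most enriched of the 15, changed by -1.16 (adjusted p = 0.059) and was not called. *CG32037* (-1.96), *phm* (-1.91) and the gap gene *gt* (-1.87) followed.

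Among gains from t2 to t3, *tipE*, a sodium channel subunit, gained 3.26 and *CG34297* 3.24. *CG3085* gained 2.90 and *CG17564* 2.77. The remaining places went to genes depleted at t2. For *CG7763* (3.09), *CG3597* (2.94), *dmrt11E* (2.90), *Ppn* (2.82) and *ltl* (2.73) the depletion was smaller at t3. *Ndg*, nidogen of the basement membrane, gained 2.85 and changed sign, with a difference of -2.37 at t2 and 0.49 at t3. All 20 named gains and losses stayed called when any t2 array was left out.

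Gene lists placed the ciliary genes in this sequence. The IFT-B median was 0.24 at t1, 0.37 at t2 and 1.69 at t3. Between the last 2 ages 7 of its 9 genes gained. The axonemal dynein median was 0.28 at t1, 0.40 at t2 and 1.65 at t3, with 8 of 13 gaining. *Zmynd10*, for one, gained 2.58 (SE 0.39, limma adjusted p = 2.1e-05). The basal body list stood at 0.31, 1.01 and 2.07 and IFT-A at 0.79, 1.04 and 1.33, each in order of age, with 4 of 7 and 2 of 5 gaining after t2. No member of these 4 lists passed the direct test between t1 and t2. *Rfx* and *fd3F* were enriched at all 3 ages and passed neither direct test. From t2 to t3 *Rfx* changed by -0.98 (limma adjusted p = 0.05) and *fd3F* by 1.42 (limma adjusted p = 0.032), short of the limit.

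Other lists held members that lost enrichment after t2. Medians of the MCM and origin genes were 0.22 at t1, 0.71 at t2 and -0.29 at t3, with 9 of 10 losing from t2 to t3. The ecdysone P450 median was 0.37 at t3 and 3 of 6 genes lost, and *phm* lost the most. The sensory precursor median was 2.36 at t1, 1.80 at t2 and 1.11 at t3, with 3 of 6 losing after t2. Antennal and head genes stood at 2.38, 1.88 and 1.00, with 5 of 10 losing. All 5 mesoderm genes gained from t2 to t3, where their median was -0.93, and 3 of the 4 achaete-scute genes gained. These are counts of members, set against 3.23% and 2.41% of all genes.

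**Figure D5:**
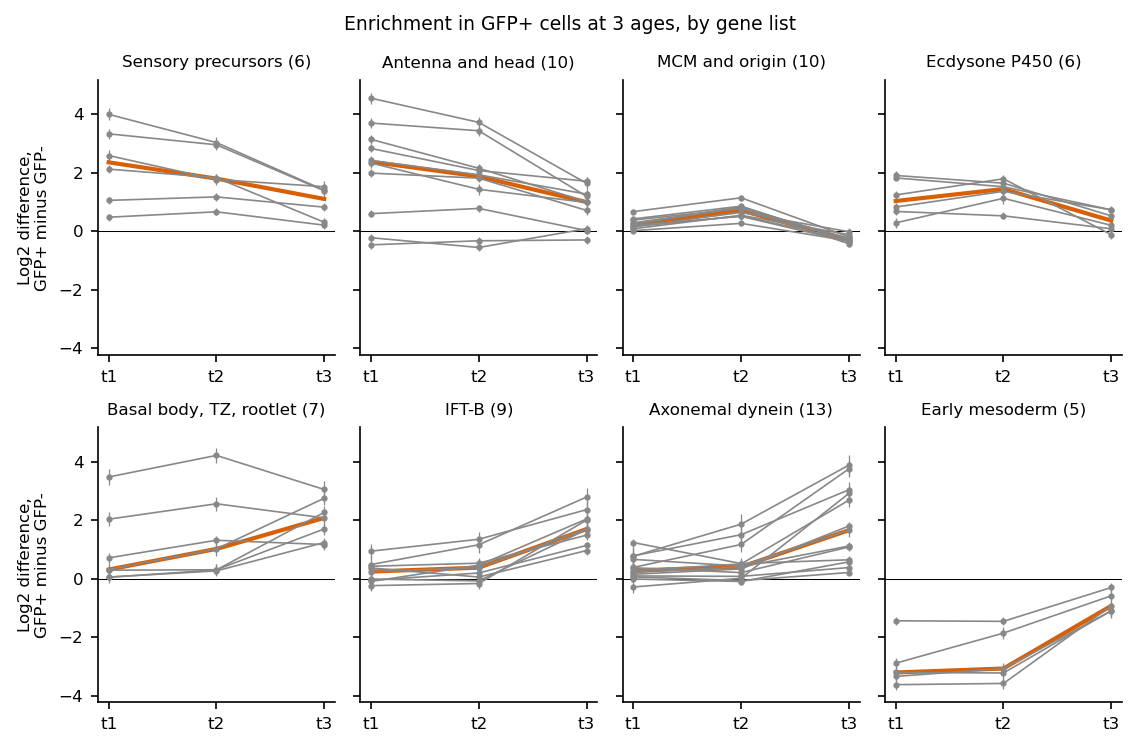
Enrichment in GFP+ cells (log2, GFP+ minus GFP-) at t1, t2 and t3 for the members of 8 gene lists (grey lines, bars are standard errors) with the list median in orange. IFT-B and axonemal dynein medians are near 0.4 at t2 and above 1.6 at t3, and the MCM and origin median is 0.22 at t1, 0.71 at t2 and -0.29 at t3.

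Counts after t2 moved with single t3 arrays, with array weights (452 gains and 462 losses) and with ribosomal protein centring (291 and 293). Without t3 GFP- replicate 3 there were 361 gains and 434 losses, without t3 GFP+ replicate 3 479 and 378, and without t3 GFP- replicate 2 208 losses. GFP+ replicate 3 at t3 had the lowest array weight, 0.418, against 0.847 to 1.23 at t2.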

How the data were processed

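RNA from sorted cells was hybridised to Affymetrix Drosophila 2.0 arrays. The authors deposited log2 intensities made by robust multi-array averaging (AffyPLM) and quantile normalisation, so background correction and normalisation are theirs. The number of labelling cycles differs between the labels and the methods. Of 18952 probe sets, 183 controls were left out, and of the 18769 tested, 13647 name 1 gene in the platform table, 402 several and 4720 none. They name 11982 genes, 1094 of them by more than 1 probe set.

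A limma 3.58.1 (R 4.3.3) model with 8 group means over 31 arrays gave GFP+ minus GFP- at each age, and differences of these between neighbouring ages, with Benjamini-Hochberg adjustment and limits of 1.5-fold and 1%. Named are *ato*, the 15 largest changes each way among called genes with classes apart, the 10 largest each way for each change of enrichment, and members of 37 lists (359 of 420 entries measured). Members and lists were chosen with earlier results of these data known, so lists are described by counts and medians. Whether equal replicate numbers pair the t2 samples is not known, and the main model does not use pairs. The 11 alternatives were a replicate block, only the groups compared, a filter on dim probe sets (mean of at least 6), cyclic loess, ribosomal protein centring, an intensity trend with robust estimation, array weights, treat (a test against 1.5-fold), a 5% limit, a 2-fold limit and 1 probe set per gene. Each t2 array was also left out, and, chosen after the values were seen, each of 15 t1 and t3 arrays. The steps were tested on simulated data.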

Additional observations from a re-analysis of the deposited data

Results flagged for a closer look

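In 5 of the 60 class groups tested for the 30 genes most changed at t2, 1 array stood apart from the other 3 by Dixon's criterion, where chance gives about 1 in 20 groups. *dila* had 4.40 in GFP- replicate 3, above the other GFP- arrays, and *CG17549* 10.8 and *prim* 9.06 in GFP+ replicate 1, below the other GFP+ arrays. *CG7763* had 9.99 and *Dgat2* 9.41 in GFP- replicate 2, above the other GFP- arrays. The classes of these genes could not overlap, because only genes with classes apart were named at t2.

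Enrichment at t2 differed from that at a neighbouring age by a direct test. From t1 to t2, 24 genes gained and 36 lost, and from t2 to t3, 387 gained and 289 lost. Of the genes named at t2, *Pex7* gained 1.97 over t1, *erm* changed by -0.95 and *CG15209* by -1.32. The enrichment of 27 of the 30 genes named at t2 differed at t3, where 676 of 11982 genes did. Each of the 27 lay nearer to no difference at t3. These genes were chosen for large t2 differences and the t2 values enter the test, so the choice itself favours smaller differences at t3.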

How the results depend on the processing

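Genes higher at t2 numbered 639 with ribosomal protein centring, 118 with treat and 147 at 2-fold, and genes lower 263 with treat and 316 at 2-fold, and under the other alternatives both counts stayed within 1.5 times of 402 and 689. Leaving out 1 t2 array gave 366 to 441 higher and 656 to 686 lower, and without GFP- replicate 4, whose labels disagree, 422 and 669. From t1 to t2, gains numbered 64 with only the groups compared, 53 with array weights, 2 with treat, 47 at a 5% limit and 8 at 2-fold. Losses numbered 76, 79, 1, 70 and 22 under the same alternatives, and 20 with ribosomal protein centring. Leaving out 1 array gave 16 to 24 gains and 23 to 41 losses. From t2 to t3, gains numbered 119 with treat. Losses numbered 180 with only the groups compared, 462 with array weights, 36 with treat and 109 at 2-fold. Leaving out 1 array gave 343 to 479 gains and 208 to 434 losses. The cause was not tested, except that treat and 2-fold ask for a larger change. The methods describe both classes collected in each sorting run, but no source says that equal replicate numbers mark a run. At t2 the correlation of deviations between equal numbers was weak (-0.019 to 0.065), yet 3 of 4 GFP+ arrays were closest to their own number. These values do not settle whether the samples are paired. With a replicate block, 417 genes were higher and 704 lower at t2, 56 gained and 79 lost from t1 to t2, and 504 gained and 372 lost from t2 to t3. No named gene changed direction under any alternative run, but the balance of counts did. At t2 it turned with ribosomal protein centring (639 higher, 479 lower). From t1 to t2 it turned with treat (2 gains, 1 loss) and was even with ribosomal protein centring (20 and 20). From t2 to t3 it turned with ribosomal protein centring (291 gains, 293 losses), with array weights (452 and 462) and without t3 GFP- replicate 3 (361 and 434). Of 139 named or listed genes called at t2, 38 missed the treat limit and 25 the 2-fold limit. The number of arrays limits precision, and dim genes near the array median, such as the channel genes, bound what could be seen.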

Other observations

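The 4 GFP+ arrays at t2 were not interchangeable for the enriched genes. In 275 of 401 genes called only higher (68.6%), GFP+ replicates 3 and 4 both lay above replicates 1 and 2, as they did in 28.7% of all genes, and the opposite held in 10. Of 45 genes in the 7 ciliary lists 24 had this order and 1 the opposite, and of the 10 MCM and origin genes 10 had it. On the depleted side replicates 3 and 4 were both below replicates 1 and 2 in 191 of 688 genes called only lower (27.8%), against 13.7% of all genes, and in 4 of 5 early mesoderm genes. In GFP- arrays the genes called only higher had replicates 3 and 4 above in 139 (34.7%), against 22.7% of all genes. This split was chosen after the values were seen, its source was not tested, and the labels give nothing by which replicates 1 and 2 differ from 3 and 4.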
